A study of Mus musculus with 48 samples.

Results

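The genes described here are 33 subunits of the receptors for glutamate and GABA in the mouse hippocampus, chosen by symbol from a gene-wise table of RNA sequencing read counts that lists 48440 genes. They comprise 4 AMPA receptor genes (Gria1 to Gria4), 5 kainate receptor genes (Grik1 to Grik5), 6 NMDA receptor genes (Grin1, Grin2a to Grin2d and Grin3a), the delta receptor gene Grid1, 6 metabotropic glutamate receptor genes (Grm2, Grm3, Grm4, Grm5, Grm7 and Grm8), 9 GABA-A receptor genes (Gabra2 to Gabra5, Gabrb1, Gabrb2, Gabrg1, Gabrg3 and Gabrd) and the GABA-B receptor genes Gabbr1 and Gabbr2. Every one of the 33 symbols matched 1 entry of the table, and all 33 passed the filter on low counts. The rule used symbols alone and no measured value.

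The libraries came from the hippocampi of 48 female C57BL/6 mice aged 3 months, 1 animal per library, with the tissue of both sides merged. Control (C) offspring had undisturbed dams, whereas prenatally stressed offspring had dams that were restrained repeatedly from embryonic day 13 to 17. By the time spent with a social target, the study split the stressed offspring into SA (socially affected) and SU (socially unaffected) animals, which the sample labels call susceptible and resilient. The genotype label reads 5-Htt+/+ (wildtype) or 5-Htt+/-, a heterozygous deficiency of the serotonin transporter gene Slc6a4, in offspring of heterozygous males and wildtype dams. The groups held 8 C, 8 SA and 8 SU offspring labelled 5-Htt+/+, and 7 C, 8 SA and 9 SU offspring labelled 5-Htt+/-. The litter is not part of the labels, so litter mates could not be recognised, and where several libraries come from 1 dam the p-values against C offspring may be understated. SA and SU were defined by behaviour after the stress, so a difference between them is not the effect of an assigned treatment.

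Glutamate opens AMPA, kainate and NMDA receptors, which are tetrameric cation channels, and activates metabotropic receptors, which signal through G proteins. AMPA receptors carry most of the fast excitatory current of hippocampal synapses, and NMDA receptors admit calcium and start the synaptic plasticity for which the hippocampus is best known. GABA opens pentameric GABA-A chloride channels assembled from alpha, beta and gamma or delta subunits, whereas the GABA-B receptor is an obligate dimer of the proteins of Gabbr1 and Gabbr2 that couples to G proteins.

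The members differed in base composition, and the variation of their counts between libraries described further on ran along that difference. The stretches that follow are the middle 120 bases of the coding sequence of the 2 members with the lowest G and C share of the transcript and of Grik5, a member with a high share, taken from the GENCODE vM21 transcripts of GRCm38, with G and C in capitals. Gabrg1 (chromosome 5, 70751047 to 70842617 on the minus strand) encodes a gamma subunit of GABA-A receptors, and coding bases 637 to 756 of 1395 are shown. Gria2 (chromosome 3, 80681450 to 80802835 on the minus strand) encodes the AMPA receptor subunit that limits calcium entry, shown for bases 1264 to 1383 of 2649. Grik5 (chromosome 7, 25009849 to 25072346 on the minus strand) encodes a high-affinity kainate receptor subunit, shown for bases 1408 to 1527 of 2937.
Gabrg1: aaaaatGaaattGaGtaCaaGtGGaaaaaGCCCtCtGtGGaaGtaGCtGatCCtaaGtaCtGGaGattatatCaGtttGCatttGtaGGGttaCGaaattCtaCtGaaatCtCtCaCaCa
Gria2: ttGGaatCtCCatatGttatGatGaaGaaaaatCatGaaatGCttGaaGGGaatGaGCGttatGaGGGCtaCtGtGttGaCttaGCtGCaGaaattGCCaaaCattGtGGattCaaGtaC
Grik5: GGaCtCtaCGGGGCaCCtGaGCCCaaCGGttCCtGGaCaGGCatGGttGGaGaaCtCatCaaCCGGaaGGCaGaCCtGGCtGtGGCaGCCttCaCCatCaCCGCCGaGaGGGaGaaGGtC
G and C made up 36.7% of the stretch of Gabrg1, 38.3% of that of Gria2 and 61.7% of that of Grik5.

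Total counts per library ranged from 16488405 to 38213754 (median 24125647.5), and the 33 members took 0.527% to 0.683% of them. Levels are given as CPM, counts scaled to a common library size, and levels of different genes are compared only per kilobase of exon. Slc6a4 was at 12.8 to 17.03 CPM in the libraries labelled 5-Htt+/- and at 0 to 0.261 CPM in those labelled 5-Htt+/+, that is, higher where the label names the deficient allele. The reason was not tested. Genotypes are given as labelled, and the sign of every contrast between the labels rests on the labels being right. Markers of the tissue were present: the mean log2 CPM of 6 dentate granule cell genes was 5.04 to 5.89, that of 5 CA1 genes 5.28 to 5.92 and that of 5 CA3 genes 3.89 to 4.38 over the 48 libraries. On the first principal component of all other tested genes, signed so that Gria2 is positive, the 6 libraries of lowest score were taken as a set. They were C replicate 7 and SA replicate 5 labelled 5-Htt+/+ and C replicates 1, 3 and 7 and SU replicate 8 labelled 5-Htt+/-. The cut was made after seeing the data and marks no gap in the scores. SA replicate 5 labelled 5-Htt+/+ was at -23.5, and the next library, SA replicate 2 labelled 5-Htt+/-, at -21.3. Fold changes of single genes against C offspring labelled 5-Htt+/-, which hold 3 of these 6 libraries, are given with and without the 6.

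Gria1 had by far the highest level, 179 CPM per kilobase on average, followed by Gabbr1 (66.6), Gabra5 (55.9), Gria2 (54.9) and Grin1 (41.3). The length used was that of all annotated exons of a gene together. It exceeded that of the longest coding transcript to different degrees, with 15548 against 10371 bases for Gria2 and 6043 against 5546 for Gria1. The order of genes with near levels can therefore depend on the length chosen. The lowest levels were those of Grm4 (1.77) and Grm8 (1.21), metabotropic receptors that act mainly on the release of transmitter. Summed over the members of a class, the AMPA genes stood at 217 to 302 CPM per kilobase (median 274) and the GABA-A genes at 116 to 169.8 (median 149). No library had a GABA-A sum as high as the lowest AMPA sum. The GABA-B genes followed at 86.6 to 128 (median 102) and the NMDA genes at 89.7 to 108 (median 99.8), and these 2 classes overlapped over the libraries. Metabotropic receptors (48.5 to 77.04, median 68.6) and kainate receptors (54.1 to 70.6, median 63.4) also overlapped, and Grid1 was at 8.63 to 11.9 (median 9.84). The coefficient of variation over the 48 libraries ran from 5.84% for Gabra5 and 5.96% for Gria1 to 20.7% for Gabrb2 and 20.96% for Gria2. Membership of 1 of the 6 groups accounted for a median of 11.7% of the variance of a member's log2 CPM. The means of 6 groups take up part of the variance even where the groups do not differ, and the share was not corrected for this.

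**Figure D1:**
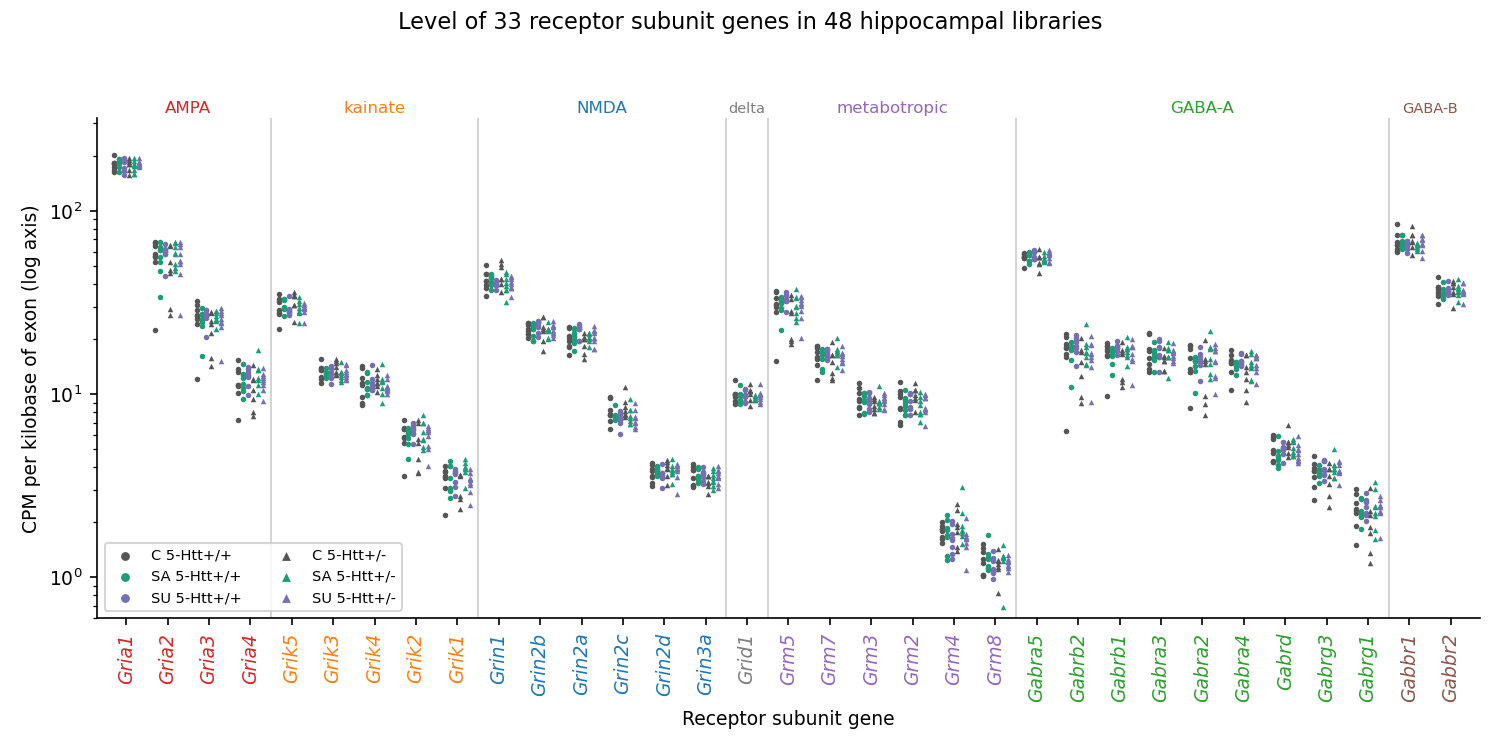
Level of each of the 33 receptor genes in every library, as CPM per kilobase of exon on a log axis, by receptor class and group; points are libraries. Gria1 stands highest at 179 CPM per kilobase on average, Grm8 lowest at 1.21, and the groups overlap for every gene.

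None of the 33 members passed an adjusted p of 0.05 in any of the 9 contrasts (quasi-likelihood test of edgeR, Benjamini-Hochberg adjustment over 31208 genes), and none did under any of the 60 other settings tried, DESeq2 among them. Log2 fold changes are therefore given as values, each ± its standard error, and counts of members with an unadjusted p under 0.05 are set beside the share of all tested genes that met the same criterion.

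Among AMPA receptor genes, Gria1 and Gria2 encode the principal pore-forming subunits of pyramidal cells, Gria3 a subunit that pairs with that of Gria2, and Gria4 a subunit known from interneurons and early development. Gria1 ranged from 989 to 1215 (median 1092) CPM in C, 979 to 1161 (median 1104) in SA and 952 to 1171 (median 1123) in SU offspring labelled 5-Htt+/+. Gria1 under the 5-Htt+/- label ran from 953 to 1179 (median 1085) CPM in C, 958 to 1172 (median 1067) in SA and 1051 to 1175 (median 1088) in SU offspring. Its group medians lay within 1067 to 1123 CPM, all 6 groups overlapped, and no contrast had an unadjusted p under 0.05. Gria4 ranged from 45.8 to 96.8 (median 70.8) CPM in C, 59.2 to 92.2 (median 74.7) in SA and 62.4 to 89.1 (median 79.7) in SU offspring labelled 5-Htt+/+. Gria4 under the 5-Htt+/- label ran from 47.9 to 90.6 (median 66.7) CPM in C, 63.02 to 109.6 (median 81.05) in SA and 58.1 to 87.8 (median 75.7) in SU offspring. The lowest libraries were C replicate 7 labelled 5-Htt+/+ and C replicates 7 and 1 labelled 5-Htt+/-, the highest was SA replicate 4 labelled 5-Htt+/-, and all groups overlapped. The log2 fold change of Gria4 between SA and C offspring labelled 5-Htt+/- was 0.29 ± 0.12 (unadjusted p = 0.0180, adjusted p = 0.360) in the quasi-likelihood test of edgeR. It was 0.08 ± 0.11 without the 6 libraries of lowest first component. Gria2 spanned 349 to 1057 CPM and Gria3 120 to 317 CPM over the 48 libraries, with C replicate 7 labelled 5-Htt+/+ the lowest in both.

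Kainate receptor genes encode the low-affinity subunits Grik1, Grik2 and Grik3, which form channels on their own, and the high-affinity subunits Grik4 and Grik5, which need 1 of the former. Grik5 ranged from 118 to 183 (median 157) CPM in C, 138 to 172 (median 154) in SA and 141 to 177 (median 147) in SU offspring labelled 5-Htt+/+. Grik5 under the 5-Htt+/- label ran from 128 to 186 (median 177) CPM in C, 127 to 175 (median 150.3) in SA and 126 to 162 (median 152) in SU offspring. The highest Grik5 values were those of C replicate 3 labelled 5-Htt+/-, C replicate 7 labelled 5-Htt+/+ and C replicate 1 labelled 5-Htt+/-, the lowest that of C replicate 3 labelled 5-Htt+/+, and all groups overlapped. The fold changes of Grik5 in offspring labelled 5-Htt+/- were -0.13 ± 0.07 for SA and -0.14 ± 0.07 for SU against C, and -0.03 ± 0.08 and -0.05 ± 0.08 without the 6 libraries. Grik1 ranged from 14.7 to 27.3 (median 23.99) CPM in C, 18.3 to 28.9 (median 22.1) in SA and 18.6 to 26.3 (median 24.8) in SU offspring labelled 5-Htt+/+. Grik1 under the 5-Htt+/- label ran from 15.9 to 24.4 (median 24.1) CPM in C, 20.6 to 29.7 (median 26.5) in SA and 16.6 to 26.4 (median 22.9) in SU offspring. SA offspring labelled 5-Htt+/- had the highest median, and 3 of the 4 lowest libraries were C offspring, although the groups overlapped. Grik1 gave a log2 fold change of 0.29 ± 0.11 (unadjusted p = 0.00901, adjusted p = 0.333) between SA and C offspring labelled 5-Htt+/- in the quasi-likelihood test of edgeR, and 0.23 ± 0.10 (unadjusted p = 0.0254, adjusted p = 0.9995) between SA and SU offspring of that label. Without the 6 libraries of lowest first component these became 0.11 ± 0.09 and 0.19 ± 0.08. Grik3 ranged from 103 to 139 (median 122) CPM in C, 110.5 to 125 (median 114) in SA and 102 to 128 (median 118) in SU offspring labelled 5-Htt+/+. Grik3 under the 5-Htt+/- label ran from 114 to 140.3 (median 126) CPM in C, 104 to 134 (median 116) in SA and 107 to 132 (median 116) in SU offspring. The highest Grik3 values belonged to C replicates 1 and 3 labelled 5-Htt+/- and C replicate 7 labelled 5-Htt+/+, within overlapping groups. SA minus C offspring labelled 5-Htt+/- was -0.13 ± 0.06 (unadjusted p = 0.0278, adjusted p = 0.378) for Grik3 in the quasi-likelihood test of edgeR and -0.04 ± 0.06 without the 6 libraries, to which its 3 highest values belonged. Grik2 and Grik4 had no contrast with an unadjusted p under 0.05.

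NMDA receptors combine the obligatory subunit of Grin1 with subunits of Grin2a to Grin2d, which set the kinetics, or of Grin3a, which lowers calcium entry. Grin1 ranged from 332 to 491 (median 404) CPM in C, 359 to 441 (median 418) in SA and 360.4 to 406 (median 382) in SU offspring labelled 5-Htt+/+. Grin1 under the 5-Htt+/- label ran from 349 to 520.5 (median 413) CPM in C, 308 to 452 (median 385) in SA and 329 to 426 (median 389) in SU offspring. The 3 highest libraries were C replicates 3 and 1 labelled 5-Htt+/- and C replicate 7 labelled 5-Htt+/+, the lowest was SA replicate 4 labelled 5-Htt+/-, and all groups overlapped. In offspring labelled 5-Htt+/- the log2 fold change of Grin1 against C was -0.17 ± 0.07 (unadjusted p = 0.0221, adjusted p = 0.364) for SA and -0.17 ± 0.07 (unadjusted p = 0.0182, adjusted p = 0.251) for SU, by the quasi-likelihood test of edgeR with the same C libraries in both. Without the 6 libraries of lowest first component these values were -0.01 ± 0.07 and -0.03 ± 0.07. Grin1 shares its locus with the antisense gene Grin1os, which had a median of 6097 counts against 9419 for Grin1, and no source used here states whether counting was strand-specific, so reads of the pair cannot be told apart. Grin2a ranged from 292 to 415 (median 356) CPM in C, 309 to 410 (median 371) in SA and 348 to 435 (median 405) in SU offspring labelled 5-Htt+/+. Grin2a under the 5-Htt+/- label ran from 280.1 to 387 (median 359) CPM in C, 324 to 388 (median 365) in SA and 316 to 422 (median 364) in SU offspring. SU offspring labelled 5-Htt+/+ had the highest median, the 3 lowest libraries were all C offspring, and the groups overlapped. The log2 fold change of Grin2a between SU and C offspring labelled 5-Htt+/+ was 0.16 ± 0.07 (unadjusted p = 0.0275, adjusted p = 0.998) in the quasi-likelihood test of edgeR, the only unadjusted p under 0.05 among the members in that contrast. Grin2b ranged from 506 to 608 (median 558) CPM in C, 482 to 606 (median 563) in SA and 507 to 619.8 (median 599.5) in SU offspring labelled 5-Htt+/+. Grin2b under the 5-Htt+/- label ran from 429.9 to 659 (median 565) CPM in C, 494 to 617 (median 559) in SA and 501 to 619.8 (median 548) in SU offspring. C replicate 1 labelled 5-Htt+/- was lowest and C replicates 5 and 6 of the same label were highest, so the spread of this group enclosed all others.

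Grin2c ranged from 32.4 to 48.9 (median 39.1) CPM in C, 36.4 to 43.9 (median 38.4) in SA and 30.7 to 40.6 (median 37.1) in SU offspring labelled 5-Htt+/+. Grin2c under the 5-Htt+/- label ran from 37.9 to 54.97 (median 40.6) CPM in C, 34.5 to 47.4 (median 37.9) in SA and 32.6 to 45.04 (median 37.5) in SU offspring. The 4 lowest Grin2c libraries came from SU offspring or from C replicate 3 labelled 5-Htt+/+, and C replicate 3 labelled 5-Htt+/- was highest. Grin2c had the smallest p of the members in the contrast of SU with C offspring labelled 5-Htt+/-, a log2 fold change of -0.20 ± 0.08 (unadjusted p = 0.0103, adjusted p = 0.215) in the quasi-likelihood test of edgeR, which was -0.10 ± 0.08 without the 6 libraries. Grin2d ranged from 21.03 to 27.9 (median 24.6) CPM in C, 23.9 to 26.98 (median 25.5) in SA and 20.5 to 27.7 (median 23.8) in SU offspring labelled 5-Htt+/+. Grin2d under the 5-Htt+/- label ran from 21.2 to 29.04 (median 26.3) CPM in C, 21.6 to 29.4 (median 25.4) in SA and 18.9 to 27.8 (median 26.02) in SU offspring. The lowest Grin2d library was SU replicate 6 labelled 5-Htt+/-, and the group medians lay between 23.8 and 26.3 CPM with overlap throughout. Grin3a ranged from 38.3 to 51.03 (median 44.9) CPM in C, 39.98 to 48.9 (median 43.6) in SA and 39.6 to 49.3 (median 44.9) in SU offspring labelled 5-Htt+/+. Grin3a under the 5-Htt+/- label ran from 35.2 to 44.1 (median 40.9) CPM in C, 37.04 to 48.8 (median 42.04) in SA and 37.6 to 49.5 (median 43.9) in SU offspring. C offspring labelled 5-Htt+/- had the lowest Grin3a median and held the lowest library, replicate 3, but overlapped with every other group. Grid1, whose delta receptor takes part in synapse adhesion, was the single member of its class. Grid1 ranged from 52.97 to 71.1 (median 59.4) CPM in C, 52.5 to 66.9 (median 58.6) in SA and 53.6 to 63.5 (median 58.8) in SU offspring labelled 5-Htt+/+. Grid1 under the 5-Htt+/- label ran from 51.5 to 67.8 (median 61.9) CPM in C, 55.3 to 59.2 (median 57.8) in SA and 53.01 to 67.4 (median 58.8) in SU offspring. The highest Grid1 values were again those of C replicate 7 labelled 5-Htt+/+, C replicate 1 and SU replicate 8 labelled 5-Htt+/-, and SA offspring of that label had the narrowest range.

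Metabotropic receptors fall into group I, to which Grm5 belongs and which raises intracellular calcium, and groups II (Grm2, Grm3) and III (Grm4, Grm7, Grm8), which lower cyclic AMP. Grm5 ranged from 155 to 376 (median 317) CPM in C, 230.4 to 346 (median 322) in SA and 289 to 369.7 (median 337) in SU offspring labelled 5-Htt+/+. Grm5 under the 5-Htt+/- label ran from 193 to 355 (median 286) CPM in C, 254 to 384 (median 307) in SA and 207 to 354 (median 316) in SU offspring. C replicate 7 labelled 5-Htt+/+ and C replicates 1, 3 and 7 labelled 5-Htt+/- were the 4 lowest libraries, while SA replicate 4 labelled 5-Htt+/- was highest. Grm5 had the smallest p of the members in the genotype contrast, -0.12 ± 0.07 (unadjusted p = 0.0996, adjusted p = 0.926) for 5-Htt+/- minus 5-Htt+/+ by the quasi-likelihood test of edgeR. Grm2 ranged from 33.04 to 57.1 (median 44.1) CPM in C, 37.6 to 51.8 (median 42.9) in SA and 37.6 to 49.9 (median 43.4) in SU offspring labelled 5-Htt+/+. Grm2 under the 5-Htt+/- label ran from 39.3 to 56.6 (median 48.3) CPM in C, 34.5 to 50.03 (median 40.9) in SA and 33 to 49.2 (median 41.2) in SU offspring. C offspring labelled 5-Htt+/- had the highest Grm2 median, and the groups overlapped. The log2 fold changes of Grm2 in offspring labelled 5-Htt+/- were -0.21 ± 0.09 (unadjusted p = 0.0275, adjusted p = 0.378) for SA and -0.18 ± 0.09 for SU against the same C libraries, by the quasi-likelihood test of edgeR. They were -0.17 ± 0.11 and -0.17 ± 0.11 without the 6 libraries. Grm4 ranged from 9.16 to 12.1 (median 10.9) CPM in C, 7.42 to 13.1 (median 10.5) in SA and 7.51 to 12.1 (median 9.72) in SU offspring labelled 5-Htt+/+. Grm4 under the 5-Htt+/- label ran from 8.32 to 15.1 (median 11.3) CPM in C, 9.12 to 18.7 (median 10.8) in SA and 6.53 to 12.6 (median 9.88) in SU offspring. SA replicate 7 labelled 5-Htt+/- was the highest library and SU replicate 6 of that label the lowest, at counts that reach down to 130 per library. Grm4 differed by 0.29 ± 0.12 (unadjusted p = 0.0227, adjusted p = 0.9995) between SA and SU offspring labelled 5-Htt+/- in the quasi-likelihood test of edgeR, and by 0.35 ± 0.12 (unadjusted p = 0.00479, adjusted p = 0.9997) without the 6 libraries. Among the 6 is SU replicate 8, the highest SU library of that label for Grm4 at 12.6 CPM. Grm7 ranged from 69.9 to 108 (median 97.2) CPM in C, 78.1 to 104 (median 97.7) in SA and 90.4 to 104 (median 98.6) in SU offspring labelled 5-Htt+/+. Grm7 under the 5-Htt+/- label ran from 69.98 to 113 (median 87.8) CPM in C, 83.1 to 119 (median 100.1) in SA and 79.9 to 108 (median 94.7) in SU offspring. The 4 lowest Grm7 libraries were C replicate 7 labelled 5-Htt+/+ and C replicates 1, 7 and 3 labelled 5-Htt+/-, and SA replicate 3 labelled 5-Htt+/- was highest. SA minus C offspring labelled 5-Htt+/- was 0.20 ± 0.08 (unadjusted p = 0.0228, adjusted p = 0.366) for Grm7 in the quasi-likelihood test of edgeR and 0.03 ± 0.07 without the 6 libraries. Grm3 and Grm8 had no contrast with an unadjusted p under 0.05.

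Of the GABA-A receptor genes, Gabra5 encodes the alpha subunit typical of extrasynaptic receptors on hippocampal pyramidal cells, Gabra2 that of receptors on the axon initial segment, and Gabrd the delta subunit of tonic inhibition in dentate granule cells. Gabra5 ranged from 145 to 176 (median 167) CPM in C, 152 to 177 (median 171) in SA and 163 to 181 (median 166) in SU offspring labelled 5-Htt+/+. Gabra5 under the 5-Htt+/- label ran from 136 to 184 (median 166) CPM in C, 156 to 178 (median 162) in SA and 154 to 182 (median 173) in SU offspring. Gabra5 had the smallest coefficient of variation of all members, and its groups overlapped. Gabra2 ranged from 64.1 to 142 (median 112) CPM in C, 77.6 to 122 (median 116) in SA and 90.3 to 138 (median 117) in SU offspring labelled 5-Htt+/+. Gabra2 under the 5-Htt+/- label ran from 58.9 to 152 (median 112) CPM in C, 91.96 to 169.9 (median 127) in SA and 76.7 to 144 (median 117) in SU offspring. The 4 lowest Gabra2 libraries were C offspring among the 6 libraries of lowest first component, and SA replicate 4 labelled 5-Htt+/- was highest. The log2 fold change of Gabra2 between SA and C offspring labelled 5-Htt+/- was 0.32 ± 0.15 (unadjusted p = 0.0403, adjusted p = 0.401) in the quasi-likelihood test of edgeR and 0.01 ± 0.12 without these 6 libraries. Gabrb1 ranged from 135 to 262 (median 241) CPM in C, 176 to 248 (median 231) in SA and 228 to 272 (median 249) in SU offspring labelled 5-Htt+/+. Gabrb1 under the 5-Htt+/- label ran from 152 to 266 (median 228) CPM in C, 198 to 285 (median 239) in SA and 156 to 276 (median 249) in SU offspring. The 6 lowest Gabrb1 values were those of the same 6 libraries, and the group medians lay between 228 and 249 CPM. Gabrg1 ranged from 11.8 to 23.97 (median 18.4) CPM in C, 14.5 to 21.3 (median 17.6) in SA and 16.1 to 22.6 (median 19.6) in SU offspring labelled 5-Htt+/+. Gabrg1 under the 5-Htt+/- label ran from 9.41 to 24.2 (median 14.8) CPM in C, 12.8 to 26.1 (median 18.4) in SA and 12.9 to 22 (median 18.97) in SU offspring. C replicates 3 and 7 labelled 5-Htt+/- were lowest for Gabrg1 and SA replicate 4 of that label was highest, with overlap of all groups. Against C offspring labelled 5-Htt+/-, Gabrg1 was at 0.28 ± 0.14 in SA and 0.27 ± 0.14 in SU offspring on the log2 scale, against 0.02 ± 0.13 and 0.07 ± 0.13 without the 6 libraries. Gabrd ranged from 12.2 to 17.2 (median 14.1) CPM in C, 11.3 to 16.9 (median 13) in SA and 12.04 to 15.8 (median 14.5) in SU offspring labelled 5-Htt+/+. Gabrd under the 5-Htt+/- label ran from 13.1 to 19.6 (median 15.1) CPM in C, 13.2 to 16.4 (median 14.2) in SA and 12.2 to 17.1 (median 13.6) in SU offspring. C replicate 1 labelled 5-Htt+/- was the highest Gabrd library, and both ends of the range were reached by single libraries within overlapping groups. Gabrg3, whose subunit is a less common gamma subunit, was at 0.21 ± 0.09 (unadjusted p = 0.0251, adjusted p = 0.374) between SA and C offspring labelled 5-Htt+/- by the quasi-likelihood test of edgeR and at 0.03 ± 0.08 without the 6 libraries. Gabra3, Gabra4 and Gabrb2 had no contrast with an unadjusted p under 0.05.

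For the GABA-B receptor, Gabbr1 encodes the subunit that binds GABA and Gabbr2 the subunit that couples to the G protein. Gabbr1 ranged from 464 to 658 (median 507) CPM in C, 482 to 576 (median 513) in SA and 458 to 529.6 (median 509) in SU offspring labelled 5-Htt+/+. Gabbr1 under the 5-Htt+/- label ran from 448 to 639 (median 532) CPM in C, 468 to 516 (median 500.4) in SA and 431 to 574 (median 514) in SU offspring. The 3 highest Gabbr1 libraries were C replicate 7 and SA replicate 5 labelled 5-Htt+/+ and C replicate 7 labelled 5-Htt+/-. They were among the 6 of lowest first component, and the groups overlapped. Gabbr2 lay between 197 and 292 CPM over all libraries, and neither gene had a contrast with an unadjusted p under 0.05.

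Prenatal stress in offspring labelled 5-Htt+/+ left no member past the threshold. For SA against C offspring, 0 of 33 members were called where 0.0128% of all tested genes were, and 0 had an unadjusted p under 0.05 where 3.07% of all genes did. The median log2 fold change of the members was -0.01 (all genes -0.0017), and the 95% intervals of all members lay within -0.34 and 0.33. Values were positive for 11 members and negative for 22 (33.3% positive, all genes 49.1%). For SU against C offspring, 0 members were called beside 0.0192% of all genes, and Grin2a alone had an unadjusted p under 0.05, which is 1 of 33 members beside 3.37% of all genes. The median of the members was 0.02 (all genes -0.01), and all 4 AMPA genes and 8 of 9 GABA-A genes had positive values, of at most 0.13. Positive values were found for 63.6% of all members and 47.65% of all genes.

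In offspring labelled 5-Htt+/-, more members had a small unadjusted p, and so had more of all genes. For SA against C offspring, 0 of 33 members were called (all genes 0.0288%), and 8 had an unadjusted p under 0.05 (all genes 12.1%). The 5 with positive values were Grik1, Gria4, Grm7, Gabrg3 and Gabra2, the 3 with negative values were Grin1, Grm2 and Grik3, and the smallest adjusted p of any member was 0.333 (edgeR). By class, the median log2 fold change was 0.26 for the 4 AMPA genes and 0.20 for the 9 GABA-A genes. It was 0.08 for the 6 metabotropic, -0.03 for the 6 NMDA, -0.04 for the 5 kainate and -0.07 for the 2 GABA-B genes. For SU against the same C offspring, 0 members were called (all genes 0.016%), and Grin2c and Grin1 had an unadjusted p under 0.05, which is 2 of 33 members beside 15.4% of all genes. The class medians were 0.17 for AMPA, 0.17 for GABA-A, 0.06 for metabotropic, -0.02 for NMDA, -0.10 for kainate and -0.05 for GABA-B genes. Over all members the medians were 0.06 for SA and 0.07 for SU, beside -0.01 and -0.0028 for all genes.

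These counts depended on single libraries, of C and of stressed offspring. With single libraries left out, the members with an unadjusted p under 0.05 ranged from 1 to 17 for SA against C offspring labelled 5-Htt+/- and from 0 to 14 for SU against C, while the share of all genes ran from 8.05% to 20.8% and from 9.59% to 22.5%. Without C replicate 1 labelled 5-Htt+/- there was 1 member in each of these contrasts (all genes 8.62% and 12.9%), whereas without C replicate 4 of that label there were 17 and 11 (all genes 20.8% and 22.5%). The 14 for SU against C were found without SU replicate 8 of that label (all genes 18.6%). Without the 6 libraries of lowest first component, 1 member had an unadjusted p under 0.05 in either contrast (all genes 5.33% and 7.52%), and the medians over the members were 0.0039 and -0.01.

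**Figure D2:**
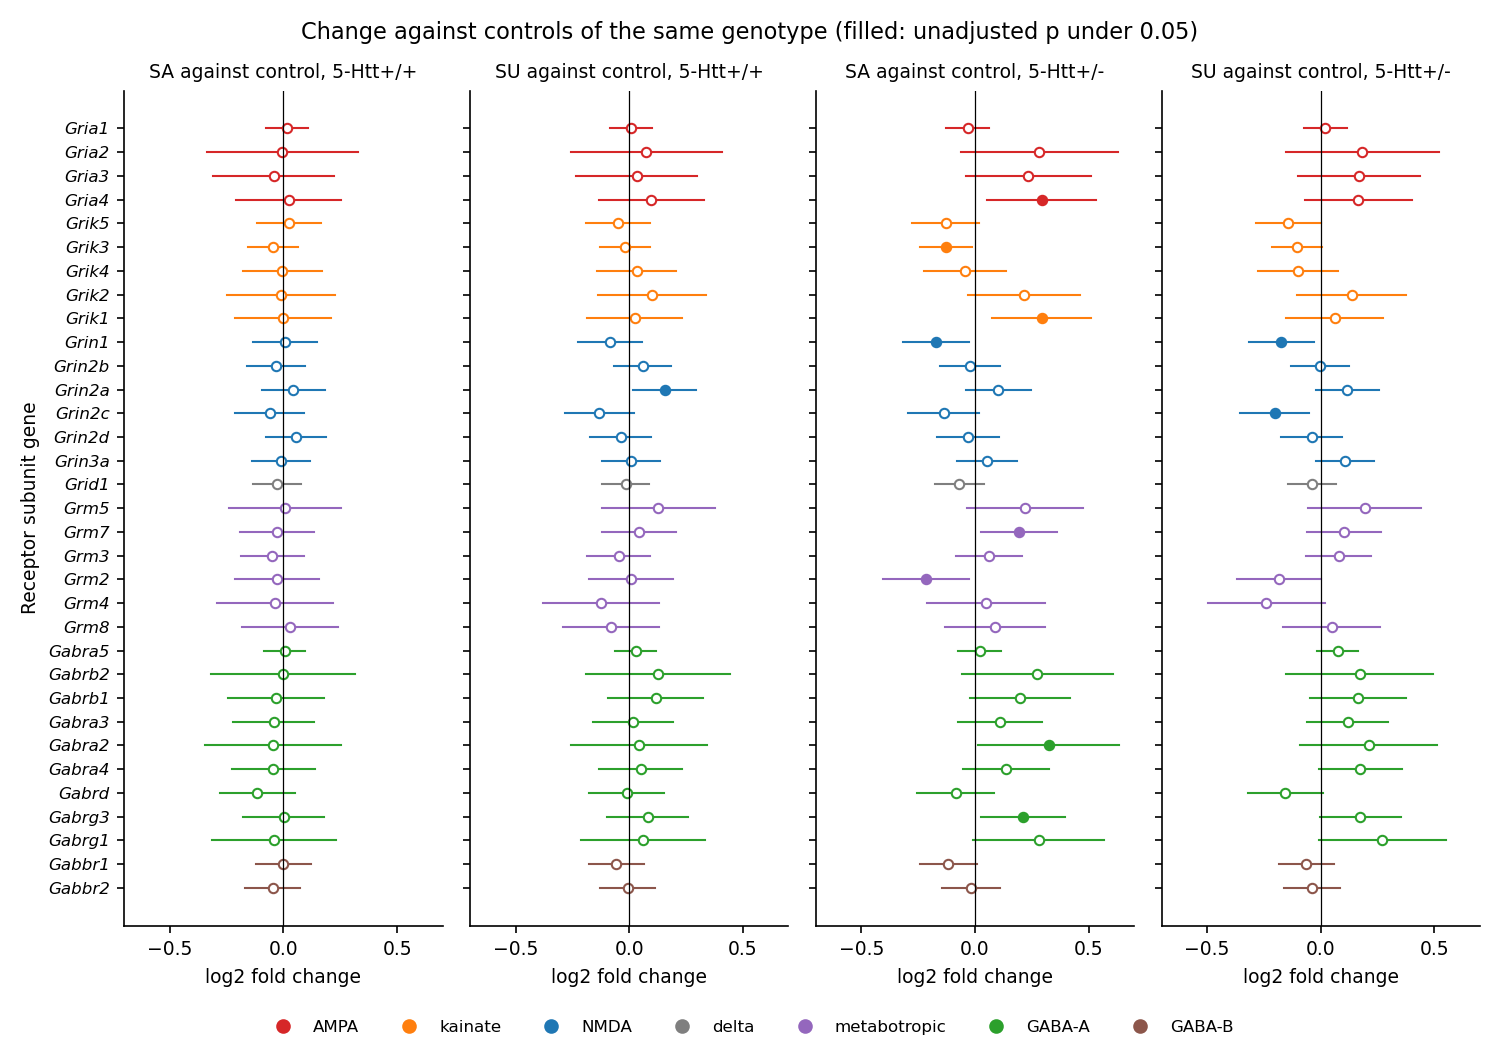
Log2 fold change of each of the 33 receptor genes for SA and SU against C offspring within each genotype label, with 95% intervals from the quasi-likelihood fit; genes are arranged by receptor class, and filled points have an unadjusted p under 0.05. Under the 5-Htt+/- label the fold changes spread more widely, up to 0.32 for SA, than under the 5-Htt+/+ label, and no gene passed an adjusted p of 0.05.

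SA and SU offspring were compared directly within each label, a contrast in which the C libraries cancel. Under the 5-Htt+/+ label, 0 of 33 members were called (all genes 0%), and 0 had an unadjusted p under 0.05 (all genes 3.9%). The members' median was -0.04 (all genes 0.0039), and all 9 GABA-A genes had negative values, between -0.15 and -0.02, where 51.6% of all genes had positive ones. Several of these genes vary together over the libraries, such as Gabrb1 and Gabrb2 (r 0.94 within groups), so their signs are not separate observations. Under the 5-Htt+/- label, 0 were called (all genes 0%), and 2 of 33, Grm4 and Grik1, had an unadjusted p under 0.05 (all genes 3.79%). The members' median there was 0.02 (all genes -0.0017).

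The three-way contrast of the study asks whether the difference between SA and SU offspring depends on the genotype label. No member was called in it (all genes 0%), and none had an unadjusted p under 0.05 (all genes 3.7%). Grik1 came closest, with -0.26 ± 0.15 (unadjusted p = 0.0810, adjusted p = 1) by the quasi-likelihood test of edgeR. The members' median was -0.07 (all genes 0.01), and 8 of 9 GABA-A genes and 3 of 4 AMPA genes had negative values, where 51.4% of all genes had positive ones.

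For the genotype label over all groups, 0 of 33 members were called (all genes 0.0224%), and 0 had an unadjusted p under 0.05 (all genes 5.01%), with a median of -0.02 and values from -0.13 to 0.09. When the effect of prenatal stress was compared between the labels, 0 members were called (all genes 0%), and 0 had an unadjusted p under 0.05 (all genes 6.01%). The median over the members was 0.08 (all genes -0.0022), and Grm2 had the smallest p with -0.19 ± 0.11 (unadjusted p = 0.105, adjusted p = 0.826) in the quasi-likelihood test of edgeR. The wider spread of fold changes under the 5-Htt+/- label is thus not shown to differ between the labels for any member.

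A much larger part of the variation of the members went with the first principal component of log2 CPM over the tested genes other than the members, which held 7.62% of the variance of these genes. With the sign set so that Gria2 was positive, its values ran from -57.9 to 29.02 in C, -23.5 to 14.97 in SA and -8.18 to 19.8 in SU offspring labelled 5-Htt+/+. Under the 5-Htt+/- label they ran from -47.4 to 35.1, -21.3 to 36.9 and -31.5 to 25.2 in C, SA and SU offspring. The groups overlapped along it, with the lowest median in C offspring labelled 5-Htt+/- (-13.9). The component alone accounted for a median of 57.4% of the variance of a member's log2 CPM, beside 11.7% for the group alone, a share that is uncorrected for the number of groups.

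Over the 48 libraries, which share the scaling and the base composition of each gene, 13 members had a Pearson r of at least 0.7 with the component. They were Gria2 (0.87), Gria3 (0.84), Gria4 (0.90), Grik1 (0.76), Grik2 (0.91), Grm5 (0.92), Grm7 (0.88), Gabra2 (0.88), Gabra4 (0.85), Gabrb1 (0.87), Gabrb2 (0.83), Gabrg1 (0.88) and Gabrg3 (0.88). An r of at most -0.5 was found for 10 members, namely Grin1 (-0.90), Grik5 (-0.85), Gabbr1 (-0.78), Grik3 (-0.76), Grin2d (-0.75), Gabbr2 (-0.69), Grin2c (-0.67), Grid1 (-0.59), Grm2 (-0.54) and Gabrd (-0.53). The other 10 lay between, among them the highly expressed Gria1 (-0.40), Gabra5 (-0.12) and Grin2b (0.35). The split ran through the receptor classes: 6 of 9 GABA-A genes and 3 of 4 AMPA genes went up the component, both GABA-B genes went down, and the kainate class had Grik1 and Grik2 among the former and Grik3 and Grik5 among the latter. Without the 6 lowest libraries the correlations were 0.77 for Grm5, 0.78 for Gria4, -0.85 for Grin1 and -0.87 for Grik5. They were lower in size for others, with 0.45 for Grik1, 0.57 for Gabrb2, 0.62 for Gabrb1 and -0.54 for Grik3. Of the 13 members at 0.7 or more, 5 were then under 0.7 (lowest 0.45), and of the 10 at -0.5 or less, 3 were then above -0.5. Over all 48 libraries an absolute r of 0.7 or more was reached by 18 of 33 members (54.5%) and by 3901 of 11994 protein-coding genes with a mean CPM of at least 5 (32.5%), a description of these libraries without a test.

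**Figure D3:**
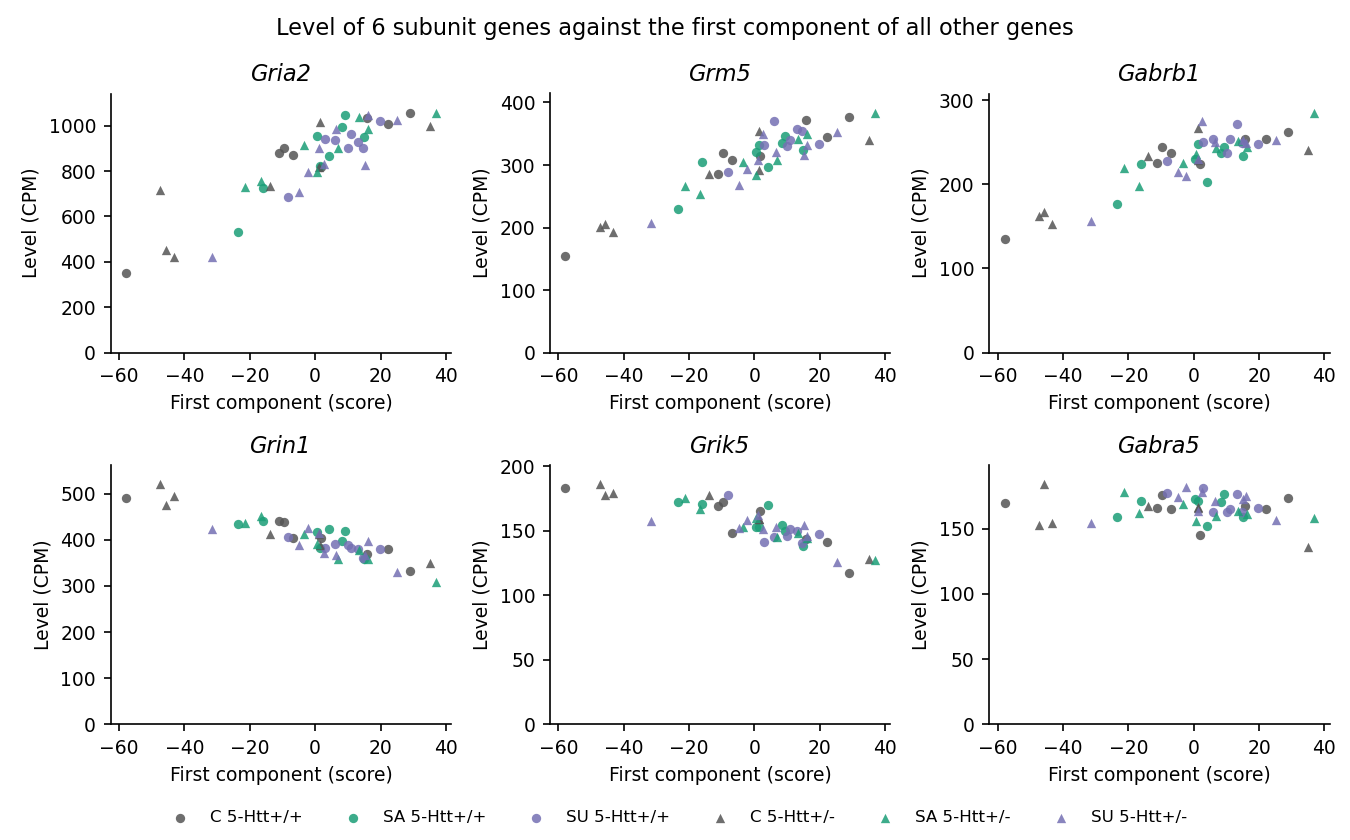
Level in CPM of 6 receptor genes against the first principal component of the other genes, 1 point per library, with colour for C, SA and SU and shape for the genotype label. Grm5 (0.92), Gria2 (0.87) and Gabrb1 (0.87) rise along the component, Grin1 (-0.90) and Grik5 (-0.85) fall, and Gabra5 (-0.12) shows little relation; the values are Pearson r over 48 libraries.

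The members that went up the component had transcripts of low G and C content, with a median of 42.5% (range 35.3% to 47.9%), and those that went down had a median of 56.9% (range 49.9% to 65%), so that the 2 sets did not overlap. Gabrg1 and Gria2, shown above with 35.3% and 36.8% over the whole transcript, had correlations of 0.88 and 0.87. Grik5 and Grin2d, with 62.3% and 65%, had -0.85 and -0.75. Across the 33 members, which are not independent replicates, the correlation of a gene with the component and its G and C content were related with a Pearson r of -0.88 (Spearman rho -0.87). Across the 11994 protein-coding genes the same relation was -0.79, so it was not confined to the receptor genes. Grm4, at 61.7% G and C, had an r of only -0.37. Length showed less of a relation, with 0.26 for log10 transcript length across the members.

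**Figure D4:**
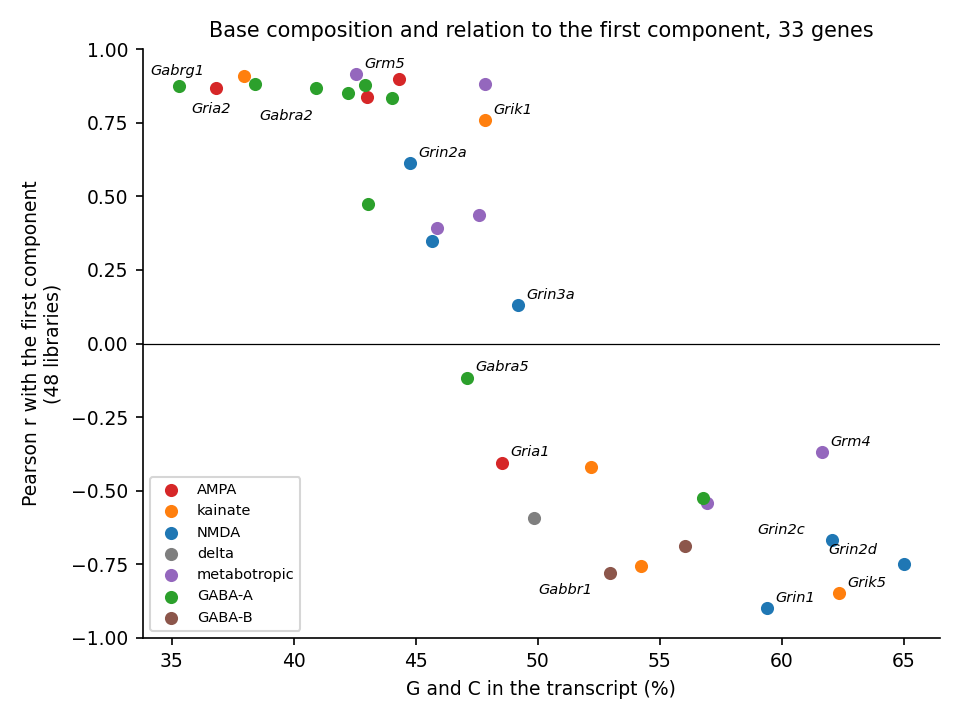
Pearson r of each receptor gene with the first component over 48 libraries against the G and C percentage of its transcript, with points coloured by receptor class. The 33 genes run from Gabrg1 at 35.3% (r 0.88) to Grin2d at 65% (r -0.75), with a relation of -0.88 across genes.

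The fold changes of the members were also ordered by base composition in most contrasts. Across the 33 genes the log2 fold change and the G and C percentage had a Pearson r of -0.91 for SU and -0.80 for SA against C offspring labelled 5-Htt+/-, and of -0.74 for SU and 0.02 for SA against C offspring labelled 5-Htt+/+. Over the 11994 protein-coding genes the corresponding values were -0.74, -0.69, -0.53 and -0.05. For the contrast of the stress effect between the labels the value across the members was -0.84, and for the genotype label it was 0.82, beside -0.64 and 0.38 over the protein-coding genes. It was 0.73 for SA against SU offspring labelled 5-Htt+/+, 0.49 in the three-way contrast and -0.0019 for SA against SU offspring labelled 5-Htt+/-, beside 0.46, 0.25 and 0.14 over the protein-coding genes. These contrasts share libraries and are not separate pieces of evidence.

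With the component as a term in the fit, the members with an unadjusted p under 0.05 numbered 0 for SA and 1 for SU against C offspring labelled 5-Htt+/- (all genes 6% and 9.95%), with medians over the members of 0.01 and -0.02. Gria4 then stood at 0.09 ± 0.06, Gabra2 at 0.06 ± 0.08 and Grin1 at -0.04 ± 0.04 between SA and C. Between SA and SU offspring labelled 5-Htt+/-, 4 of 33 members had an unadjusted p under 0.05 with the term (all genes 5.66%), namely Grik1 at 0.23 ± 0.06 (unadjusted p = 0.000891, adjusted p = 0.819 by edgeR), Grm4 at 0.29, Grm7 at 0.09 and Gria4 at 0.11, and none was called.

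Other measures moved with the component too. The share of mitochondrial counts had a Pearson r of 0.75 with it over the 48 libraries, and the total count -0.17. Of the cell type marker lists, the mean log2 CPM over 4 oligodendrocyte precursor genes (r -0.77) and that over 5 excitatory neuron genes (-0.74) went down the component. The means over 5 microglia genes (-0.55) and over 8 interneuron genes (-0.51) did so too. These values are for the mean of each list and not for its single genes. The oligodendrocyte precursor score ran from 4.15 to 4.65 in C, 4.24 to 4.56 in SA and 4.23 to 4.43 in SU offspring labelled 5-Htt+/+, and from 4.33 to 4.69, 4.06 to 4.51 and 4.15 to 4.37 in those labelled 5-Htt+/-. The excitatory neuron score ran from 8.30 to 8.70, 8.37 to 8.58 and 8.38 to 8.55 under the 5-Htt+/+ label, and from 8.29 to 8.67, 8.38 to 8.61 and 8.33 to 8.56 under the 5-Htt+/- label. The 10 choroid plexus genes, which stand for tissue next to the hippocampus, varied most, from -0.197 to 4.16, and had an r of 0.28 with the component and of -0.29 (Grin1) to 0.30 (Gabrg1) with the members. In bulk tissue fewer cells of a type and less RNA per cell cannot be told apart. The part of any of these measures in the variation of the receptor genes was not tested.

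Pairs of members were compared by the Pearson r of their log2 CPM after removal of the group means, over the same 48 libraries. The 528 pairs had a median of -0.0039, 15 reached at least 0.9 and 25 were at or under -0.7. The closest pairs were Gria2 with Gria3 (0.97) and Gabrb1 with Grm5 (0.97), all on the side of the component with low G and C content, and Gabrg3 with Grin1 (-0.84) was among the most opposed. Gabra4 and Gabrb1, whose starts overlap head to head on chromosome 5, had 0.88. Subunits that assemble with each other were alike to different degrees, with 0.80 for Gabbr1 and Gabbr2 and 0.81 for Grin2a and Grin2b, but -0.46 for Grin1 and Grin2a.

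Ratios of levels per kilobase within a library were examined for 5 pairs of subunits, a choice made after the fits had been seen. All pairs but Grin1 with Gria1, which belong to different receptors, are known to share or exchange places in a receptor. Their log2 values were compared by two-sided exact permutation tests in 30 comparisons of groups with Benjamini-Hochberg adjustment. The ratio of Grin2a to Grin2b, which rises as hippocampal synapses mature, was 0.764 to 0.963 (median 0.889) in C, 0.870 to 0.986 (median 0.940) in SA and 0.904 to 0.980 (median 0.953) in SU offspring labelled 5-Htt+/+. Under the 5-Htt+/- label it was 0.771 to 0.905 (median 0.852), 0.859 to 0.986 (median 0.906) and 0.822 to 0.996 (median 0.923) in C, SA and SU offspring. Both C groups had the lower median and overlapped with the stressed groups of their label. The log2 differences from C by the exact permutation test were 0.08 (p = 0.102, adjusted p = 0.367) for SA and 0.10 (p = 0.0253, adjusted p = 0.191) for SU labelled 5-Htt+/+, and 0.12 (p = 0.0174, adjusted p = 0.191) and 0.11 (p = 0.0330, adjusted p = 0.191) for SA and SU labelled 5-Htt+/-. None passed the adjustment, and the ratio had an r of 0.51 with the first component.

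The ratio of Gabbr2 to Gabbr1 was 0.515 to 0.606 (median 0.536) in C, 0.501 to 0.554 (median 0.533) in SA and 0.542 to 0.608 (median 0.560) in SU offspring labelled 5-Htt+/+. Under the 5-Htt+/- label it was 0.503 to 0.570 (median 0.548), 0.511 to 0.637 (median 0.579) and 0.482 to 0.601 (median 0.548). SA offspring thus had the lower median under the first label and the higher under the second, with overlap in both. SA minus SU was -0.10 (p = 0.00218, adjusted p = 0.0653) under the 5-Htt+/+ label and 0.07 (p = 0.135, adjusted p = 0.367) under the 5-Htt+/- label by the exact permutation test, neither past the adjustment over the 30 tests. With single libraries left out the adjusted p under the 5-Htt+/+ label ran from 0.0373 to 0.131 in exact permutation tests, and it was under 0.05 without SU replicate 2, SA replicate 6 or SA replicate 7. The difference between the labels in SA minus SU was -0.17 on the log2 scale, and an exact permutation test of SA and SU within each label gave p = 0.00260. Because SA and SU were shuffled within each label, a difference under 1 label alone can give a small p. The test therefore does not settle whether the labels differ. This test was run for the 5 ratios once the values above had been seen, with an adjusted p of 0.0130 over these 5 tests and 0.0455 over all 35 tests of ratios. With single SA or SU libraries left out, the difference ran from -0.19 to -0.14 and the adjusted exact permutation p over the 5 tests from 0.00140 to 0.0338. Adjusted over all 35 tests, the exact permutation p then ran from 0.00981 to 0.118 and was not under 0.05 for 25 of the 33 libraries left out. The component had an r of 0.15 with this ratio, and without the 6 libraries the difference was -0.16 (exact permutation p = 0.00605, adjusted p = 0.0302 over the 5 tests and 0.106 over all 35). The genes themselves were at 0.11 ± 0.08 for Gabbr1 and -0.06 ± 0.08 for Gabbr2 in the three-way contrast, with neither past the threshold.

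The other ratios followed the component. Gria2 to Gria1, which bears on the calcium permeability of AMPA receptors, spanned 0.112 to 0.429 over the 48 libraries and had an r of 0.88 with the component. Gabra2 to Gabra5 spanned 0.147 to 0.418 (r 0.90) and Grin1 to Gria1 0.193 to 0.304 (r -0.73). None of their comparisons of groups passed the adjustment. The smallest exact permutation p among them was that of Grin1 to Gria1 for SU minus C offspring labelled 5-Htt+/-, with -0.19 (p = 0.0276, adjusted p = 0.191).

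**Figure D5:**
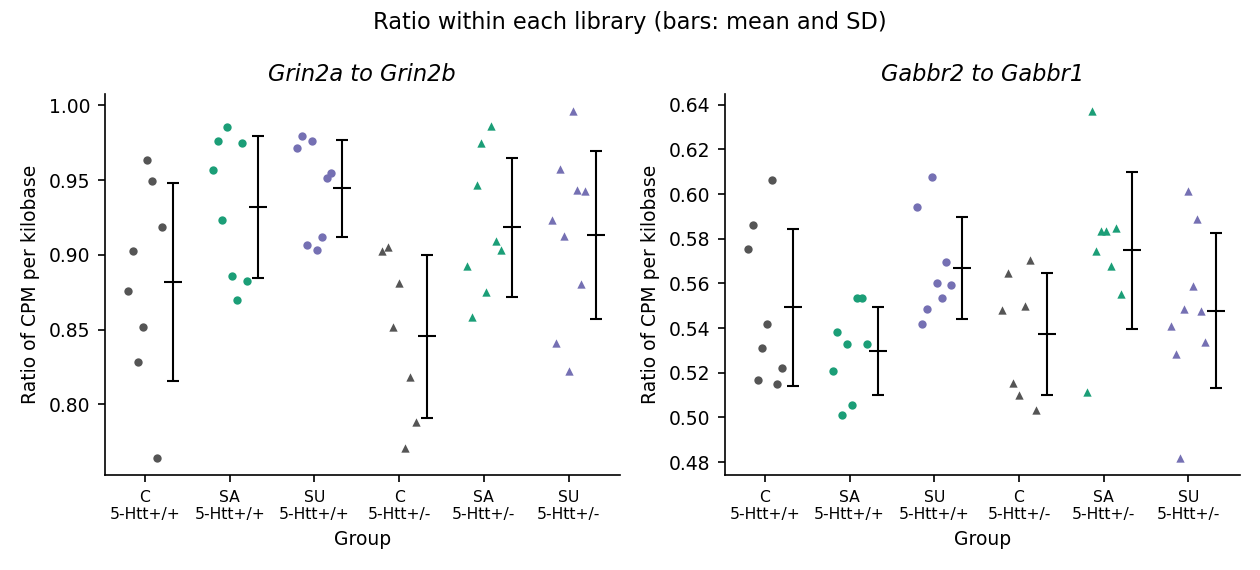
Ratios of CPM per kilobase between 2 subunit genes in each library, by group; points are libraries, and the black bars beside them give the group mean and SD. For Gabbr2 to Gabbr1 the SA median is 0.533 against 0.560 in SU offspring labelled 5-Htt+/+, and 0.579 against 0.548 in those labelled 5-Htt+/-.

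The receptors work together with auxiliary subunits and scaffolds, of which 38 genes were examined in the same fits: AMPA and kainate receptor auxiliaries (such as Cacng2, Cnih2 and Neto1), scaffolds of the excitatory synapse (such as Dlg4, Shank3 and Homer1), of the inhibitory synapse (such as Gphn and Nlgn2) and partners of GABA-B receptors (such as Kctd12 and Kctd16). None was called in any of the 9 contrasts. In offspring labelled 5-Htt+/+, 2 had an unadjusted p under 0.05 for SA against C, both with negative values (2 of 38, all genes 3.07%), and 1 for SU against C (all genes 3.37%), which was the AMPA receptor auxiliary Cacng4 at -0.19 ± 0.07. Under the 5-Htt+/- label there were 8 of 38 for SA against C, 2 positive and 6 negative (all genes 12.1%), and 10 of 38 for SU against the same C offspring, 4 positive and 6 negative (all genes 15.4%). Without the 6 libraries of lowest first component these counts were 0 and 1. Gphn, which encodes the gephyrin scaffold of inhibitory synapses, stood at 0.19 ± 0.07 and 0.16 ± 0.07, and Sorcs2 at -0.20 ± 0.08 and -0.18 ± 0.07 for SA and SU. Without the 6 libraries Gphn was at 0.12 ± 0.07 and 0.10 ± 0.07 and Sorcs2 at -0.08 ± 0.07 and -0.06 ± 0.07. Cacng5 was at -0.35 ± 0.13 for SA against C, and at -0.21 ± 0.15 without the 6 libraries. In the contrast of the stress effect between the labels, Gphn was at 0.27 ± 0.08 (unadjusted p = 0.00193, adjusted p = 0.721) and Homer1, the scaffold that ties Grm5 to the synapse, at 0.34 ± 0.15 in the quasi-likelihood test of edgeR, against 0.14 ± 0.09 and 0.18 ± 0.14 without the 6 libraries. Between SA and SU offspring, Grasp was at 0.17 ± 0.08 under the 5-Htt+/+ label and Kctd16, an auxiliary of GABA-B receptors, at 0.24 ± 0.11 under the 5-Htt+/- label. In the three-way contrast Kctd16 was at -0.41 ± 0.17 and Cacng2, which traffics AMPA receptors, at -0.24 ± 0.09 (unadjusted p = 0.0173 and 0.0141, adjusted p = 1 for both, edgeR). No partner gene had an unadjusted p under 0.05 for the genotype label.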

How the data were processed

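The files hold read counts per gene, whole numbers that the authors deposited for 48 libraries without normalisation. For their making, the submitters' notes list STAR, HTSeq and DESeq2 with the build GRCm38.p5, whereas the paper's methods describe STAR followed by Salmon and tximport, and no source used here gives versions or strandedness. A gene was tested if 3 or more libraries held 5 or more reads of it, which left 31208. The scaling was by upper quartiles, and edgeR 4.0.16 (R 4.3.3, limma 3.58.1) fitted a mean per group with quasi-likelihood F tests and Benjamini-Hochberg adjustment over all genes, a procedure checked on simulated counts. The principal component was that of log2 CPM (prior count 2). No pair of libraries within a group was close enough to be the same library (169 pairs, lowest chi-square per gene 2.42). Lengths and base composition came from GENCODE vM21. Genes with values by library were the 4 of smallest p per contrast and the highest of each class. Alternatives included DESeq2 1.42.0, other scalings and filters, added terms and libraries left out. Ratios were compared by exact permutation tests. Members, lists and tests were chosen with earlier results of these data known. Counts of a member ranged from 130 (Grm4) to 40630 (Gria1) per library, so precision was lowest for Grm4.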

Additional observations from a re-analysis of the deposited data

Results flagged for a closer look

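Single libraries stood far from the rest of their group in 29 of the 228 combinations of a gene or ratio and a group that were examined with Dixon's test. This is 12.7%, where chance gives about 1 in 20. Many of the genes vary together over the same libraries, so the combinations are not separate observations and 1 library can be flagged many times. The 29 flags fell on 11 libraries, and 14 of the 29 on the 6 libraries with the lowest first component. C replicate 7 labelled 5-Htt+/+ was the lowest of its group for Gria2 (349.2 CPM), Gria3 (120 CPM), Gabrb1 (135 CPM), Gabrb2 (39.98 CPM), Grm5 (155 CPM) and the ratio of Gria2 to Gria1 (0.1117), and the highest for Grid1 (71.1 CPM). SA replicate 5 labelled 5-Htt+/+ was lowest for Gria3 (158.5 CPM), Gabra2 (77.58 CPM) and Grm5 (230.4 CPM) and highest for Grin2c (43.89 CPM). SU replicate 8 labelled 5-Htt+/- was lowest for Gria3 (148.7 CPM) and Gabrg1 (12.95 CPM), and C replicate 1 of that label was highest for Gabrd (19.64 CPM).

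Among the other libraries, SU replicate 4 labelled 5-Htt+/+ was lowest for Gria2 (686.5 CPM), Gria3 (202.1 CPM) and the ratio of Gria2 to Gria1 (0.2279) and highest for Grik4 (85.75 CPM) and Grik5 (177.3 CPM). SU replicate 6 labelled 5-Htt+/- was lowest for Grin2d (18.94 CPM) and Grik5 (125.7 CPM). SA replicate 4 labelled 5-Htt+/- was highest for Gabrb2 (153 CPM), Gabrg3 (60.31 CPM) and Grm3 (33.62 CPM), and SA replicate 7 of that label for Grm4 (18.68 CPM) and the ratio of Grin1 to Gria1 (0.2922). C replicate 4 labelled 5-Htt+/+ was lowest for Gabra5 (145.1 CPM). Grm8 was highest in SA replicate 2 labelled 5-Htt+/+ (16.8 CPM) and lowest in SA replicate 2 labelled 5-Htt+/- (6.84 CPM), which are different animals.

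For the ratio of Gabbr2 to Gabbr1, the difference between the labels in SA minus SU was -0.1674 on the log2 scale (5-Htt+/+ minus 5-Htt+/-). It was examined by an exact permutation test chosen after the values had been seen. Adjusted over all 35 tests of ratios, the p of this test was under 0.05 with all libraries (0.0455) but not for 25 of the 33 single libraries left out. SA and SU were shuffled within each label, so a difference under 1 label alone can give a small p. Whether the labels differ is not settled by it.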

How the results depend on the processing

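No member was called at an adjusted p of 0.05 in any contrast under the 60 other settings, of which 48 left out 1 library each, and 575 of 10923 fold changes of members changed sign under them, none of them called. The number of members with an unadjusted p under 0.05 did move. For SU against C offspring labelled 5-Htt+/- it was 4 with TMM scaling, with no filter, with a stricter filter, with the replicate block and with the groups of the contrast alone, and 1 with the first component as a term or without the 6 libraries of lowest first component, a setting added after seeing the data. For SA against C offspring of that label it was 0 with the component, 4 with the groups alone and 1 without the 6 libraries. It was 4 with the component for SA against SU offspring labelled 5-Htt+/-, 3 with the groups alone for SA against SU labelled 5-Htt+/+, and 1 with the component or with the choroid plexus score as a term in the three-way contrast. With 1 library left out it ranged from 1 to 17 for SA and 0 to 14 for SU against C labelled 5-Htt+/-, from 0 to 1 and 0 to 2 under the 5-Htt+/+ label, from 1 to 2 for SA against SU labelled 5-Htt+/-, from 0 to 1 in the three-way contrast, from 0 to 3 for the genotype label and from 0 to 5 for the stress effect between labels. Beyond C replicates 1 and 4, the counts of SA and SU against C labelled 5-Htt+/- were 3 and 0 without C replicate 3, 3 and 4 without C replicate 7, and 15 and 13 without C replicate 6. SA against C gave 4 without SA replicate 3 or 4, and SU against C gave 8 without C replicate 2, 14 without SU replicate 8, 5 without SU replicate 5 and 4 without SU replicates 1, 2 or 3. Without C replicate 7 labelled 5-Htt+/+ there were 3 for the genotype label and 5 for the stress effect between labels, and 5 for the latter without C replicate 4 labelled 5-Htt+/-. For SU against C labelled 5-Htt+/+ there were 0 without C replicate 2, 4 or 7 or SU replicate 4, and 2 without C replicate 3. Replicate numbers did not pair the samples: of 115 pairs with the same number in different groups, 6 had a correlation of deviations over 0.1, and 8 libraries correlated best with their own number. Without the block 2 members had an unadjusted p under 0.05 for SU against C labelled 5-Htt+/-. The cause of these shifts was not tested. For the least abundant members, such as Grm4 and Grm8, low counts limit the precision.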
